A study of Mus musculus with 12 samples.

Results

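Tal1, Klf1, Gfi1b and Lmo2 encode nuclear regulators that red cell precursors depend on, and their chromatin was read here from every peak that met a fixed window around each gene. The windows, in the mouse build mm9, were chr4:114710000-114790000 for Tal1, chr8:87415000-87440000 for Klf1, chr2:28455000-28500000 for Gfi1b and chr2:103780000-103835000 for Lmo2. They held 225 of the 353812 peaks in the 11 deposited peak lists, with 74 peaks at Tal1, 49 at Klf1, 51 at Gfi1b and 51 at Lmo2. Fetal liver was profiled by ChIP-seq, with 3 libraries for H3K4me1 and 2 each for H3K27ac, H3K4me3 and H3K4me2, and proerythroblasts, an early stage of red cell precursor, by ATAC-seq in 2 libraries. All came from strain C57BL/6 at embryonic day 14.5, and the labels name no mutant allele and no treatment. The labels give the ATAC libraries a ChIP protocol, so how the proerythroblasts were isolated and transposed is unknown here. In ChIP-seq an antibody recovers DNA that carries a histone mark, and in ATAC-seq a transposase cuts accessible DNA. The liver at this age is a mixture of cells, so a mark held by a few cells and a weak mark held by all of them cannot be told apart. Neither the tissue nor the proerythroblast label could be checked against marker genes, because no gene annotation of the files' build was used.

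Tal1 is a basic helix-loop-helix protein that pairs with E proteins and binds CANNTG motifs. Lmo2 binds no DNA and bridges Tal1 and Ldb1 to GATA factors, whose motif has the core GATA. Klf1 is a zinc finger activator of erythroid genes, the adult beta-globin gene among them, and binds CACCC motifs. Gfi1b is a zinc finger repressor that recruits histone-modifying enzymes and is needed for red cells and megakaryocytes. H3K4me3 marks active promoters, H3K4me1 marks enhancers and the flanks of promoters, H3K4me2 lies at both, and H3K27ac marks promoters and enhancers in use. In the RefSeq gene order of GRCm38 the nearest protein-coding neighbours are Stil and Pdzk1ip1 for Tal1, Gcdh and Dnase2a for Klf1, Gtf3c5 and Tsc1 for Gfi1b, and Caprin1 and 4931422A03Rik for Lmo2. A peak in a window therefore need not belong to the gene that names it.

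The promoters of these genes are shown because H3K4me3, the promoter mark, was found in all 4 windows. RefSeq promoter entries, 250 bases before to 50 after a transcript start, matched 3 of the 4 genes with 4 entries, and Lmo2 had no entry. Their positions are in GRCm38.p6 and were not carried over to mm9, so they are not tied to single peaks. Capitals mark GATAA and CACCC on either strand, read as TTATC and GGGTG on the other strand. The entries lie at chr4:115056176-115056475 and chr4:115057561-115057860 (both + strand) for Tal1, at chr8:84901732-84902031 (+ strand) for Klf1 and at chr2:28621933-28622232 (− strand) for Gfi1b.
Tal1 entry 1: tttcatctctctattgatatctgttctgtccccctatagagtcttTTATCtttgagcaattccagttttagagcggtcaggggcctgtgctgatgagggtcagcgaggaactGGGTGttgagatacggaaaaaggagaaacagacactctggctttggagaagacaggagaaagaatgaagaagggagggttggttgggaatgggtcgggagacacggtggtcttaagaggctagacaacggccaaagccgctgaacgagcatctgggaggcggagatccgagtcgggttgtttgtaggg
Tal1 entry 2: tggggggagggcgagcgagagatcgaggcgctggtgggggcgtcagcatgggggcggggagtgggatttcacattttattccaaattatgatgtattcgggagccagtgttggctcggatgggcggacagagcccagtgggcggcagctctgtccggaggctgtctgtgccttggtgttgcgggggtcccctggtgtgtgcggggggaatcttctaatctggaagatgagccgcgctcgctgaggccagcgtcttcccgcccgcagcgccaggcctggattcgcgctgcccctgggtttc
Klf1: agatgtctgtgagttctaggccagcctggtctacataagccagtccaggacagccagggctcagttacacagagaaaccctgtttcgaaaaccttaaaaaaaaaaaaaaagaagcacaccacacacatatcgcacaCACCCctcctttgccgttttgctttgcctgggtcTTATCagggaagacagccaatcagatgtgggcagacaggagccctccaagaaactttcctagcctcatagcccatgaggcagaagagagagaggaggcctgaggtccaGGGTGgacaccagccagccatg
Gfi1b: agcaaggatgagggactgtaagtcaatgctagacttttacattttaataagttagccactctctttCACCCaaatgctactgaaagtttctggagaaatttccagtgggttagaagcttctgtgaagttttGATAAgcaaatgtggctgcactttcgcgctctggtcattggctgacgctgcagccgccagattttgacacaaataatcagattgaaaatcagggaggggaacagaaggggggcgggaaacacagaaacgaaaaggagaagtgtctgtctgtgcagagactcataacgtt

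Klf1, Gfi1b and the first Tal1 entry each held 1 GATAA match, and the second Tal1 entry held none. GATAA occurs in 25.4% of the 32851 RefSeq promoter entries of this length. CACCC was found at 2 places in the Klf1 entry and at 1 place each in the Gfi1b entry and the first Tal1 entry, against 57.5% of all entries with at least 1 match. The motif CANNTG, which reads the same on both strands, occurred at 2 places in the Gfi1b entry, at 1 place each in the Klf1 entry and the first Tal1 entry, and at none in the second Tal1 entry, with 72.3% of all entries holding it. In the Gfi1b entry 1 CANNTG match shares a base with the CACCC match. GATAA and CACCC stood together in 12.6% of all entries and in 3 of the 4 shown. A match is a string of letters and not a bound site.

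All 4 windows were densely covered by all 4 marks and held open chromatin. H3K4me1 peaks covered 58.3%, 45.9% and 52.3% of the Tal1 window, 76.2%, 50.4% and 64.9% of the Klf1 window, 63.5%, 56.6% and 64.9% of the Gfi1b window and 77.6%, 47.0% and 60.4% of the Lmo2 window, in replicates 1 to 3. Across chromosomes 1 to 19, X and Y the same libraries covered 5.09%, 3.56% and 4.12%. Replicate 1 had more cover than replicate 2 in every window and across all chromosomes, so cover has to be read within a library. The windows were drawn around genes with earlier results of these data known, and no test was made of windows against the rest of the chromosomes.

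H3K27ac covered 36.7% and 35.0% of the Tal1 window, 36.2% and 47.8% of the Klf1 window, 43.4% and 39.1% of the Gfi1b window and 44.4% and 39.8% of the Lmo2 window, against 2.52% and 2.07% of all chromosomes. H3K4me3 covered 16.8% and 21.2% at Tal1, 34.5% and 37.8% at Klf1, 19.01% and 18.6% at Gfi1b and 18.4% and 22.4% at Lmo2, against 1.00% and 1.30% of all chromosomes. H3K4me2 covered 39.9% and 43.9% at Tal1, 71.0% and 71.4% at Klf1, 48.9% and 48.8% at Gfi1b and 43.8% and 48.3% at Lmo2, against 3.31% and 3.58%. The Klf1 window thus had the highest percentage under H3K4me2 and under H3K4me3 in both libraries of each mark. In kilobases it was last for H3K4me2, with a mean of 17.8 against 33.5 at Tal1, 25.3 at Lmo2 and 22.0 at Gfi1b. For H3K4me3 it had 9.03 kb against 15.2 at Tal1, 11.2 at Lmo2 and 8.46 at Gfi1b. The labels name H3K4me2 antibodies from different suppliers in different fields, and the values of that mark rest on whichever was used.

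Proerythroblast ATAC peaks covered 10.2% and 14.1% of the Klf1 window, 4.37% and 6.07% of the Tal1 window, 3.95% and 6.88% of the Gfi1b window and 2.56% and 2.88% of the Lmo2 window, against 0.378% and 0.554% of all chromosomes. Klf1 was first and Lmo2 last in both libraries, while Tal1 and Gfi1b changed places between them. The Klf1 window is the shortest, at 25.0 kb against 80.0 kb for Tal1, 55.0 kb for Lmo2 and 45.0 kb for Gfi1b, and a short window drawn around a gene holds less flanking sequence. In kilobases, ATAC peaks covered 4.18 ± 0.964 at Tal1, 3.03 ± 0.680 at Klf1, 2.44 ± 0.931 at Gfi1b and 1.50 ± 0.122 at Lmo2 (SD, n = 2 each). By length of open sequence the first place was therefore Tal1's.

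**Figure D1:**
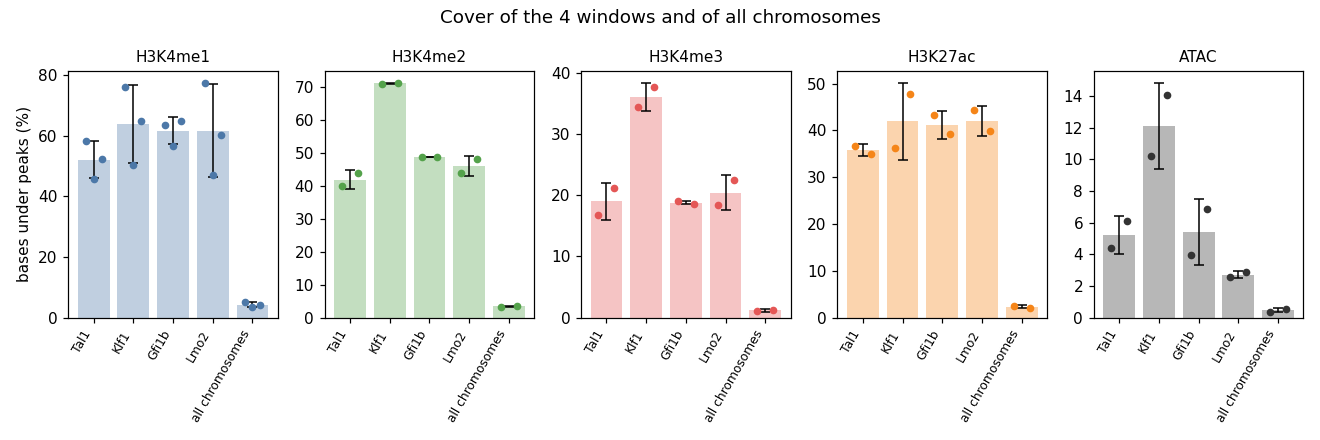
Percentage of bases under peaks in each window and, at the right of each panel, across all chromosomes, with a panel for each mark and for ATAC. Points are libraries, bars are means and whiskers are SDs (n = 3 for H3K4me1 and 2 for the others). All windows stand above the level of all chromosomes, and Klf1 is highest for H3K4me2, H3K4me3 and ATAC.

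H3K27ac covered more of the Tal1, Gfi1b and Lmo2 windows than H3K4me3 did, by about the factor seen across all chromosomes, and at Klf1 the marks were closer. H3K27ac cover was 1.89 times that of H3K4me3 at Tal1, 2.19 times at Gfi1b, 2.06 times at Lmo2 and 1.16 times at Klf1, against 1.99 times over all chromosomes. The order of the marks is thus no feature of the first 3 windows. The mean cover was 35.8% by H3K27ac against 19.004% by H3K4me3 at Tal1, 41.3% against 18.8% at Gfi1b and 42.1% against 20.4% at Lmo2. The libraries of the marks did not overlap in any of these windows. At Klf1 the means were 42.0% by H3K27ac and 36.1% by H3K4me3, a difference of 5.86 percentage points, and the libraries overlapped. H3K27ac replicate 1 (36.2%) lay below H3K4me3 replicate 2 (37.8%), which carries the same date-like tag in its title, a difference of −1.65 points for that pair. The same tag pair differed by 15.5 points at Tal1, 24.8 at Gfi1b and 21.9 at Lmo2. When only peaks with −log10 q of at least 5 were kept, the Klf1 difference was −4.86 points.

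H3K4me1 in turn covered more than H3K27ac in each window, by 16.3 points at Tal1, 21.8 at Klf1, 20.4 at Gfi1b and 19.6 at Lmo2, with every H3K4me1 library above every H3K27ac library. H3K4me1 cover was 1.46 times that of H3K27ac at Tal1, 1.52 at Klf1, 1.49 at Gfi1b and 1.46 at Lmo2, against 1.85 times over all chromosomes. Set against its own cover of all chromosomes, H3K4me1 had a lower mean ratio than H3K27ac in each window, at 12.3 against 15.7 at Tal1, 15.0 against 18.7 at Klf1, 14.7 against 18.0 at Gfi1b and 14.4 against 18.4 at Lmo2. At Klf1 the libraries overlapped in that ratio, with 14.1 to 15.8 for H3K4me1 and 14.3 to 23.1 for H3K27ac. Under the stricter threshold the libraries of both marks overlapped in all 4 windows. With −log10 q of at least 5, the differences were −0.787 points at Tal1, 12.2 at Klf1, 13.5 at Gfi1b and 5.67 at Lmo2, with exact permutation p of 1, 1, 0.6 and 0.8 in that order. With the peaks as deposited, the 8 differences were each tested by a two-sided exact permutation test over libraries. The p was 0.2 for each H3K4me1 comparison and 0.333 for H3K27ac against H3K4me3 at Tal1, Gfi1b and Lmo2. These are the smallest values that the test as computed can give with 3 against 2 libraries (10 splits) and 2 against 2 libraries (6 splits). At Klf1 the exact p for H3K27ac against H3K4me3 was 0.667. After Benjamini-Hochberg adjustment over the 8 tests every p from the exact permutation test was 0.381, except 0.667 for the Klf1 comparison.

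The Tal1 window held a pair of H3K27ac domains with no shared H3K27ac between them, while shared H3K4me1 regions ran on in that gap. The wider, chr4:114720046-114735884 (15.839 kb), ranked 358 by width among the 18236 shared H3K27ac regions of the genome, where a shared region is a merged stretch that holds a peak of every library of its group. The other, chr4:114760607-114770917, was 10.311 kb wide. A narrower region lay at chr4:114775077-114777097 and carried no H3K4me3. H3K27ac replicate 1 had 2 peaks in the gap, with folds of 2.34 and 2.75, and replicate 2 had none.

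H3K4me3 at Tal1 was concentrated in chr4:114727924-114737311, a region of 9.388 kb with a fold enrichment of 14.4 and 19.3 over the caller's background. Only 64 of 13600 shared H3K4me3 regions were at least as wide. The authors' fold placed the peak above 95.8% and 98.8% of its 2 lists. The other 4 H3K4me3 regions, from 0.775 to 3.761 kb wide, had mean folds of 3.03 to 3.85. H3K4me3 thus ran through both wide H3K27ac domains but was strong only in the first of them.

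Open chromatin at Tal1 lay at 6 sites seen in both ATAC libraries. The site of highest mean fold was chr4:114768126-114769384, in the second H3K27ac domain, with ATAC folds of 7.92 and 7.17. Its summits in the 2 libraries were 7 bp apart and 35.9 kb from the centre of the strong H3K4me3 region. The next highest, chr4:114776143-114776482, had folds of 6.42 and 7.20 and was the shared Tal1 site with H3K27ac but no H3K4me3. The H3K4me1 peak over it had the highest fold of the window in all 3 H3K4me1 libraries, at 4.81, 3.91 and 3.95, above 98.5%, 97.8% and 97.0% of those lists.

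Of the remaining Tal1 sites, 3 lay in the first domain and 1 at its edge. One, chr4:114720380-114721195, had folds of 5.61 and 6.76. A close pair at chr4:114728940-114729493 and chr4:114729561-114730146, 0.692 kb apart, had folds of 5.13 and 5.25 and of 4.47 and 3.35. The site chr4:114735788-114736103 was weak in both libraries, at 3.26 and 3.37. It straddled the end of the domain, with 30.7% of its bases under H3K27ac and both summits beyond the end, and only 1 of the 2 H3K27ac libraries had a peak on it. In background knowledge the mouse Tal1 gene has erythroid enhancers both upstream and downstream, but no element was placed on these coordinates.

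The Lmo2 window held the strongest H3K27ac of the 4 windows. Its peak over chr2:103793253-103803701 (10.449 kb) had folds of 7.15 and 5.52, above 99.4% and 98.6% of all peaks in the lists, ranking 169 and 340. A neighbouring region of 9.441 kb, chr2:103804587-103814027, had lower folds of 3.93 and 3.50. Each held 1 wide H3K4me3 region, chr2:103796878-103803552 with folds of 10.98 and 14.4 and chr2:103807437-103813108 with folds of 11.5 and 12.6. Both H3K4me3 regions lay wholly under H3K27ac, and a single H3K4me2 region of 21.988 kb, with a width rank of 91 among 35820, ran beneath both.

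Lmo2 had 4 shared open sites, arranged as 2 close pairs, 1 pair in each H3K4me3 region. In the first, chr2:103797000-103797463 had folds of 7.71 and 7.91 and chr2:103797885-103798139, 0.834 kb away, had 3.94 and 3.69. In the second, chr2:103809536-103809883 had 3.87 and 6.34 and chr2:103810390-103810894, 0.823 kb away, had 3.37 and 2.94. The first site of each pair had the higher fold in both libraries, but in replicate 1 the second pair differed little. The other 5 H3K27ac regions of the window, from 1.069 to 1.655 kb wide with mean folds of 2.15 to 2.75, held neither an open site nor H3K4me3.

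**Figure D2:**
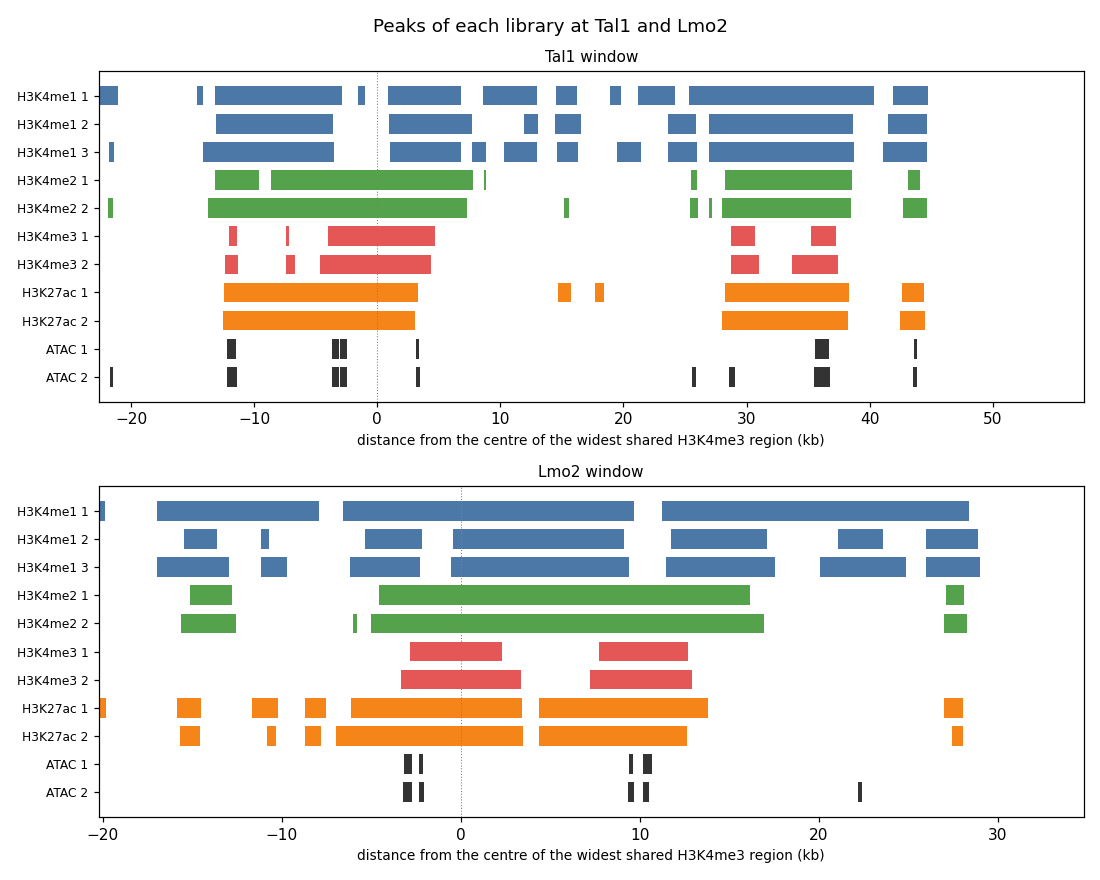
Peaks of each of the 11 libraries in the Tal1 (top) and Lmo2 (bottom) windows, 1 row per library, against distance in kb from the centre of the widest shared H3K4me3 region. Bars are peaks as the authors called them. Tal1 shows separate H3K27ac domains with open sites in each, and Lmo2 shows neighbouring domains with a close pair of open sites in each.

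The Klf1 window held 6 shared open sites in 25.0 kb. Its strongest H3K4me3, chr8:87424367-87428593 (4.227 kb), had folds of 14.9 and 16.3, above 97.0% and 94.5% of the lists. The strongest H3K27ac overlapped it, at chr8:87420460-87427834, with folds of 6.40 and 4.79. That region was 7.375 kb wide because replicate 2 called it as 1 peak, where replicate 1 had a peak of 5.027 kb and a separate one of 227 bp. The other 3 H3K4me3 regions, with mean folds of 7.84, 6.92 and 4.90, each held an open site.

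The highest mean ATAC fold of the 4 windows was at Klf1, in chr8:87417373-87418160, with 8.17 and 10.9, above 68.4% and 90.4% of the lists. In replicate 1 a Gfi1b site was higher. The Klf1 site was 8.63 kb from the centre of the strong H3K4me3 region and lay in another H3K4me3 region with folds of 6.19 and 9.48. H3K27ac there had folds of 2.63 and 2.54, below the medians of its lists, 2.86 and 2.75. Next came chr8:87432339-87433016 with ATAC folds of 7.24 and 7.75. The strong H3K4me3 region itself held 3 sites, at chr8:87425047-87425366, chr8:87425587-87425983 and chr8:87426893-87427568, with folds of 5.75 and 6.13, of 5.05 and 5.37, and of 5.66 and 4.34. The weakest, chr8:87436896-87437351, had 3.72 and 3.92 and was the shared site in the 4 windows with H3K4me3 but no H3K27ac. By mean fold, the most open site of the Klf1 window thus lay outside the window's strongest H3K4me3 and H3K27ac. To which genes the sites of this window belong was not tested.

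At Gfi1b the widest H3K27ac and the widest H3K4me3 lay apart. The widest H3K27ac region, chr2:28448903-28460732 (11.83 kb), with folds of 4.81 and 4.06, crossed the window's edge, had no shared H3K4me3 and lay under an H3K4me1 region of 29.373 kb, with a width rank of 146 among 30213. Its open site in the window, chr2:28457619-28458208, had ATAC folds of 5.97 and 7.53. H3K4me3 replicate 2 had a peak of 301 bp with a fold of 2.76 there, and replicate 1 had none. The widest H3K4me3 region of the window, chr2:28472050-28478061 (6.012 kb), had folds of 9.07 and 12.3. H3K27ac over it had folds of 2.90 and 2.67, near the medians of its lists, 2.86 and 2.75. The shared open site of that H3K4me3 region, chr2:28472375-28472866, was weak, at 4.05 and 4.93.

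The strongest open site of the Gfi1b window, chr2:28496225-28497445, had folds of 9.35 and 9.19 with summits 1 bp apart. It lay 21.4 kb from the centre of the widest H3K4me3 region, in a second H3K4me3 region with folds of 12.0 and 13.8 and under the H3K27ac peak of highest fold in the window, 5.70 and 4.80. To which gene the site belongs was not tested. H3K4me3 covered 35.1% of the H3K27ac bases of the Gfi1b window, against 56.4% at Tal1, 55.0% at Klf1 and 48.8% at Lmo2.

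**Figure D3:**
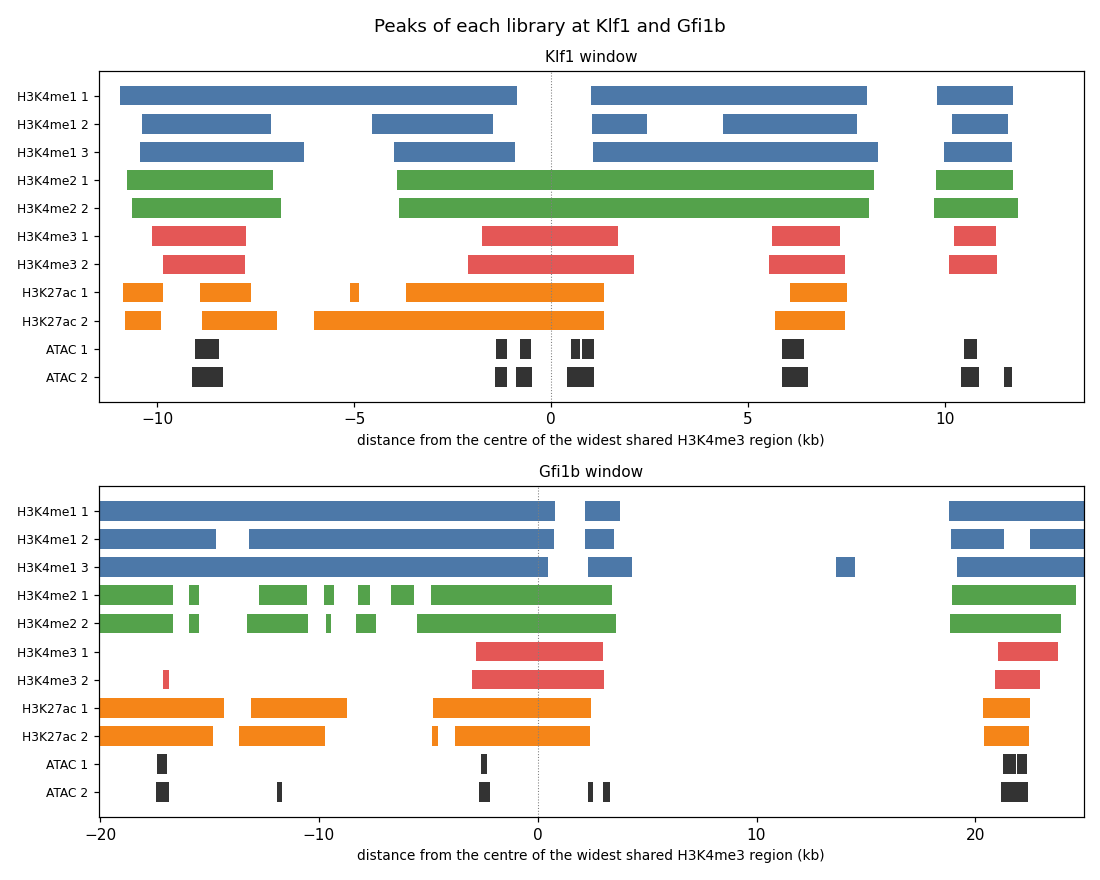
Peaks of each of the 11 libraries in the Klf1 (top) and Gfi1b (bottom) windows, 1 row per library, against distance in kb from the centre of the widest shared H3K4me3 region. Bars are peaks as called. At Klf1 all H3K4me3 regions hold open sites, and at Gfi1b an H3K27ac domain without shared H3K4me3 runs off the left edge.

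Wide regions of each mark were found in these windows. Of 13 shared H3K4me3 regions 4 were at least 5 kb wide, against 5.29% of all in the genome. At least 10 kb were reached by 7 of 14 shared H3K4me1 regions, against 6.73% of all, and by 4 of 17 shared H3K4me2 regions, against 2.81%. Of 18 shared H3K27ac regions 4 were at least 10 kb wide, against 5.41% of all such regions in the genome, with 2 of them at Tal1 and 1 each at Gfi1b and Lmo2. The count rested on replicate 2, which had 4 such peaks among 18 in the windows, while replicate 1 had 2 among 21. In the full lists 2.87% and 2.95% of peaks of replicates 2 and 1 were that wide. At least 2 shared open sites lay in 5 of the 18 regions, against 9.06% of all H3K27ac regions. Wider regions can hold more sites.

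Counted by peak, H3K27ac had the largest share among the strongest peaks of its lists, but not above the middle of them. Of its 39 peaks in the windows 10 were in the top 10% of fold of their own list, against 10% of all peaks by definition. Each replicate adds its own peak over the same region, so the peaks counted here are not independent. The counts were 9 of 70 for H3K4me1, 6 of 41 for H3K4me2, 4 of 27 for H3K4me3 and 1 of 48 for ATAC. The shares of H3K4me1, H3K4me2 and H3K4me3, at 12.9%, 14.6% and 14.8%, were near that background, and ATAC, at 2.08%, was below it. Above the median fold of their lists were 18 of 39 H3K27ac peaks, 23 of 41 H3K4me2 peaks, 38 of 70 H3K4me1 peaks, 14 of 27 H3K4me3 peaks and 16 of 48 ATAC peaks.

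By fold, the open sites were spread over the proerythroblast lists. Of 19 shared sites, 9 were below the median fold of the list in both libraries and 6 were above it in both. By −log10 q the balance turned, with 5 below the middle of the list in both libraries and 7 above it in both. The lists also hold peaks of a single library, and the shared sites of the whole genome were not counted this way. The fold percentiles ran from 1.69 to 90.4. Their positions were close between libraries: the summits of the 2 libraries were within 50 bp at 17 of the 19 sites, with a median of 17 bp. The summit gap was not measured over all shared sites of the genome, so this closeness is not shown to be particular to the windows.

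**Figure D4:**
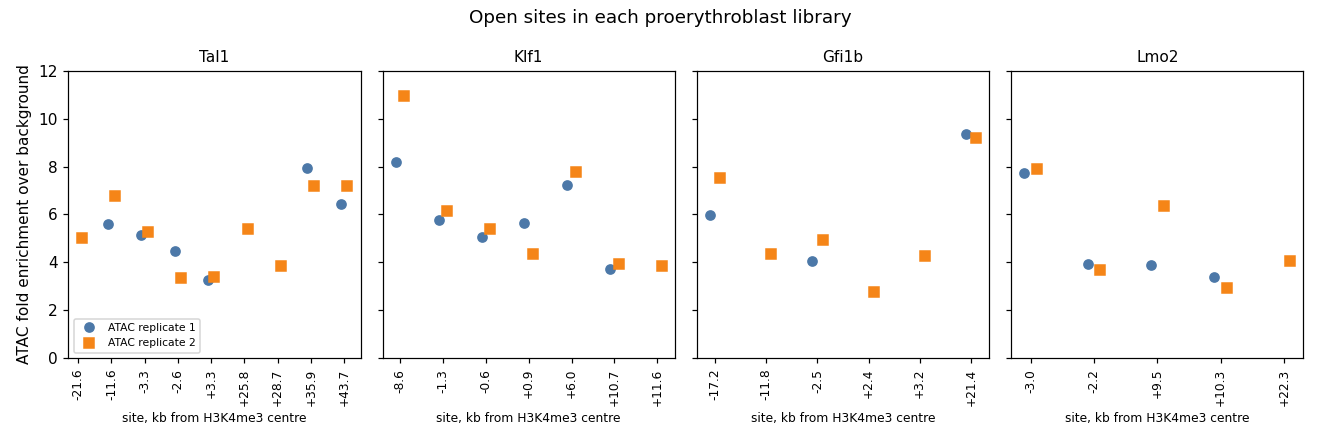
ATAC fold enrichment over the caller's background (linear axis) at every open site of the 4 windows, with replicate 1 as circles and replicate 2 as squares. Sites are ordered along the chromosome and labelled by distance in kb from the centre of the widest shared H3K4me3 region. Sites with a square alone were called in replicate 2 alone, and the highest value of replicate 2 is at Klf1 and that of replicate 1 at Gfi1b.

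By the marks they carried, 16 of the 19 shared sites had H3K4me3 and H3K27ac, against 62.1% of all shared ATAC sites in the genome. With −log10 q of at least 5 for every list it was 11 of 17 sites, against 45.9% of all shared sites at that threshold. A further 2 had H3K27ac without H3K4me3 (13.7% of all), 1 had H3K4me3 without H3K27ac (13.6%), and none had H3K4me1 or H3K4me2 only (6.82%) or no mark (3.81%). All 4 marks met by at least 1 bp at 15 sites, against 57.3% of all. Shared H3K4me1 regions covered only 30.9% of chr4:114729561-114730146, 9.82% of chr8:87425587-87425983 and 11.7% of chr8:87426893-87427568. The ATAC summits of these sites lay in stretches under no H3K4me1 peak of any library. At the others of the 15, shared H3K4me1 regions, which merge the peaks of every library, covered at least 95.4% of the bases. Single libraries covered less at some of them. H3K4me1 replicate 2 had no peak on chr8:87425047-87425366 or chr2:103809536-103809883, and its peak on chr2:28496225-28497445 ended at 28496370. The sites with H3K27ac and no H3K4me3 were those described at Tal1 and Gfi1b. Neighbouring sites share regions of a mark, so the 19 are not independent.

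Another 8 sites were called in ATAC replicate 2 alone, and none in replicate 1 alone. They were 3 at Tal1, 3 at Gfi1b, 1 at Klf1 and 1 at Lmo2. Their folds were 2.75 to 5.38, with a median of 4.16, and replicate 2 has the longer list, of 28980 peaks against 18441. Of the 8, 2 carried H3K4me3 and H3K27ac, 1 H3K27ac without H3K4me3, 1 H3K4me3 without H3K27ac and 3 H3K4me1 or H3K4me2 only, and 1 had no shared mark. Sites of replicate 2 alone were not classed over the genome, so these counts have no background beside them. The site with H3K4me3 without H3K27ac, chr2:28478060-28478366, only touched the end of an H3K4me3 region and met a peak of 1 H3K4me3 library. The site with no shared mark, chr4:114710903-114711167, met peaks of 2 of 3 H3K4me1 libraries and of 1 of 2 H3K4me2 libraries. At Gfi1b 2 of them, chr2:28477332-28477577 and chr2:28478060-28478366, lay at the end of the widest H3K4me3 region, with folds of 2.75 and 4.26. Replicate 2 alone would give Gfi1b 6 sites in place of 3 and Tal1 9 in place of 6.

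H3K4me1 was interrupted over some of the strong H3K4me3 regions. Of the 13 shared H3K4me3 regions, 6 lay wholly under H3K4me1 in all 3 libraries, and these were weak or moderate, with mean H3K4me3 folds of 3.03 to 7.84. Neither the share of regions wholly under H3K4me1 nor its relation to fold was measured over the genome. The strong Tal1 region was under H3K4me1 for 65.3%, 51.4% and 51.1% of its bases, and the strong Klf1 region for 55.9%, 40.1% and 53.2%. At Gfi1b the widest H3K4me3 region had 76.9%, 76.0% and 69.9%, and the second Lmo2 region had 72.0%, 53.1% and 63.5%. In these 4 regions every library left a stretch bare.

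A stretch of at least 500 bp under no H3K4me1 peak of any library, with H3K4me1 of every library within 5 kb on both sides, was present in 4 of the 13 regions, against 14.9% of all H3K4me3 regions in the genome. Among H3K4me3 regions at least 5 kb wide it was 3 of 4, against 61.7% of all, which is near the background. The stretches were chr8:87425626-87427489 at Klf1, chr2:28475843-28477218 at Gfi1b, chr2:103809868-103811454 at Lmo2, and chr4:114729742-114731081 and chr4:114731593-114733509 at Tal1. All lay wholly under H3K4me2 and H3K27ac. Counting in each library the peak of highest fold at each shared site, both ATAC libraries had 2 summits inside the Klf1 stretch. They had 1 each inside the Lmo2 stretch and the first Tal1 stretch, and none inside the Gfi1b stretch or the second Tal1 stretch. ATAC replicate 1 also had a weaker peak wholly inside the Klf1 stretch, chr8:87426994-87427208, with a fold of 4.65.

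The first Lmo2 region and the second Gfi1b region, with mean H3K4me3 folds of 12.7 and 12.9, depended on the library. At Lmo2 replicate 1 covered 100% of the region while replicates 2 and 3 covered 73.9% and 74.1%, and at Gfi1b replicate 2 covered 58.4% where replicates 1 and 3 covered 100%. With −log10 q of at least 5 for H3K4me1, no region met the definition, while 5 of the 13 still lay wholly under H3K4me1. The definition of the stretches was chosen after the peaks had been seen.

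**Figure D5:**
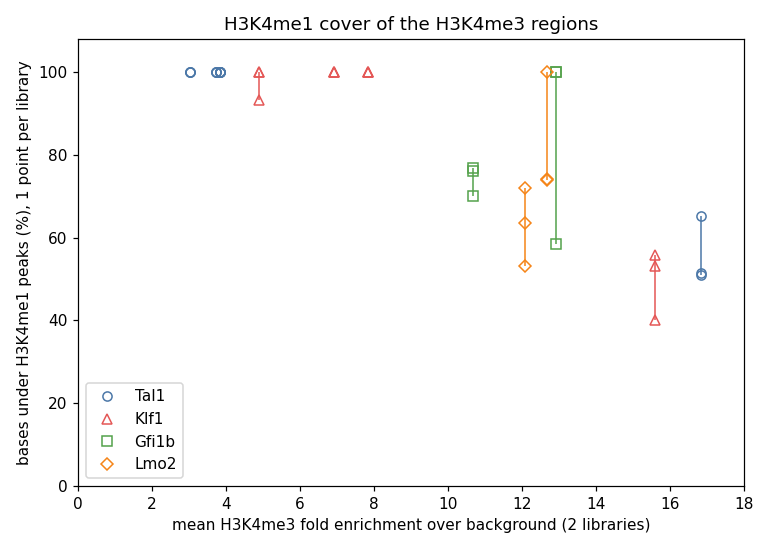
Percentage of the bases of each of the 13 shared H3K4me3 regions under H3K4me1 peaks (vertical axis, 1 point per H3K4me1 library, lines join the libraries) against the mean H3K4me3 fold of the region over 2 libraries (horizontal axis). Regions with mean folds up to 7.84 are at or near 100%, and the strong Tal1 and Klf1 regions are lowest.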

How the data were processed

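Trimming, alignment and peak calling were done by the authors. The submitters' processing notes name MACS2, SAMtools, Bowtie 1.0.1 and Trimmomatic 0.32 with mm9, while settings, control and the MACS2 version are not stated in the sources. The deposited lists, 1 per library, give for each peak a fold enrichment ratio, a −log10 p, a −log10 q and a score, which is 10 times −log10 q cut to an integer in nearly all peaks. They hold no counts, so the depth is unknown and no interval was set on it. The lists had 14031 to 52387 peaks. Of the 12 samples, the input library had no list and was not used. The 7 peaks outside the numbered chromosomes, X and Y were set aside, and summit offsets in the ATAC lists were used as deposited. Positions count from 1. Cover is the part of a window under peaks, and the cover of all chromosomes is over their 2568.43 Mb span of peaks. Overlap means at least 1 bp. Regions were named by rule: every shared ATAC, H3K4me3 and H3K27ac region in a window, weaker ones by range, plus some single-library sites chosen after their values were seen. The members and lists were chosen with earlier results of these data known. Nothing in the labels says that libraries came from separate litters, so SDs measure the spread of these libraries, which may be technical. The p-values compare the same libraries and have a floor set by their number and by the form of the test. Interval arithmetic was checked on simulated peaks (Python 3.11.15, numpy 2.4.6, pandas 2.3.3). Alternatives were −log10 q of at least 5, equal list lengths within a group, each replicate left out, whole peaks in place of clipped ones, other definitions of shared H3K27ac regions, marks over a larger part of an ATAC site and replicate pairing. The comparison by date-like tag, the H3K4me1-free stretches with their limits of 500 bp and 5 kb, the counts of wide regions and the H3K4me3 centre used in the maps were chosen after seeing the data. Differences were tested by exact permutation over libraries (scipy 1.17.1), and plots were made with matplotlib 3.10.9. Promoters come from RefSeq, GRCm38.p6.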

Additional observations from a re-analysis of the deposited data

How the results depend on the processing

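The lists hold no depth, so a peak missing from a library may be a shallower library. With −log10 q of at least 5, H3K4me1 covered 32.8% at Tal1, 43.5% at Klf1, 45.3% at Gfi1b and 40.0% at Lmo2, and H3K27ac 33.6%, 31.3%, 31.7% and 34.3% in the same order. H3K4me2 then covered 44.8% at Gfi1b and 41.9% at Lmo2, H3K4me3 15.5% at Tal1 and 18.5% at Gfi1b, and ATAC 1.98% at Lmo2. The difference between H3K27ac and H3K4me3 at Klf1 turned to −4.86 points (exact permutation p = 0.667) and that between H3K4me1 and H3K27ac at Tal1 to −0.787 (exact permutation p = 1), and H3K4me1 and H3K27ac libraries overlapped in every window. Open sites with H3K4me3 and H3K27ac were then 11 of 17. Open sites with H3K4me3 but no H3K27ac were then 2, those with H3K4me1 or H3K4me2 only 1, and H3K4me3 regions with an H3K4me1-free stretch 0. The cause was not tested.

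Equal numbers of peaks gave 18.5% for H3K4me3 at Gfi1b and 2.24% for ATAC at Lmo2. Whole peaks gave 68.6% for H3K4me1, 52.6% for H3K4me2 and 46.9% for H3K27ac at Gfi1b. Stitching neighbouring H3K27ac regions gave widest regions of 57.1 kb at Tal1, 38.5 kb at Klf1, 40.3 kb at Gfi1b and 102.8 kb at Lmo2. Bases covered in every library gave 15.5, 5.03, 9.02 and 9.58 kb. With a mark required over the larger part of the site, 2 sites had H3K4me3 without H3K27ac. The libraries of the same date-like tag gave −1.65 points at Klf1, an alternative added after seeing the data.

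Leaving out 1 replicate gave widest H3K27ac regions of 15.657 to 15.7 kb at Tal1, 5.03 to 7.38 kb at Klf1, 9.55 to 10.9 kb at Gfi1b and 9.58 to 10.4 kb at Lmo2, and 2 to 4 regions of at least 10 kb. Open sites were then 4 to 6 at Gfi1b, 6 to 9 at Tal1, 4 to 5 at Lmo2 and 7 at Klf1. Sites with H3K27ac without H3K4me3 were 1 to 3, those with H3K4me3 without H3K27ac 1 to 2, those with H3K4me1 or H3K4me2 only 0 to 3 and those with no shared mark 0 to 1. Without replicate 1 of ATAC all sites of replicate 2 count. In the replicate block, pairing libraries by number, H3K27ac minus H3K4me3 was 5.86 points at Klf1 and kept its sign in every window, as did H3K4me1 minus H3K27ac. With 2 pairs the exact sign-flip p cannot go below 0.5. Of 292 recomputed values, 246 kept their direction or stayed within the spread of the libraries or 1.5 times the count.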
